A study of Homo sapiens with 6 samples.

Results

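The CXC and CC chemokine genes described here are CXCL1, CXCL2, CXCL3, CXCL5, CXCL6, IL8 (the gene now named CXCL8), CXCL12, CXCL16, CCL2 and CCL5. They were chosen by name, with earlier results of these data known, and make up 10 of the 23346 genes in the count table, in which all 10 were found. The study depleted basonuclin-2 (BNC2), a zinc finger protein, in BT549 cells, a mesenchymal-like human breast cancer line labelled as wild type, and asked how its loss changes gene expression. Of 6 libraries, 3 are of cells that received BNC2 siRNA, mixed equally from 3 siRNAs, and 3 of cells that received a negative control (NC) siRNA, both at 20 nM. All cells grew in RPMI medium with fetal calf serum, received fresh medium 6 h after transfection and were harvested for RNA 6 d after it. The labels name a Lipofectamine reagent other than RNAiMax, which the methods give for siRNAs. All 6 libraries come from a single cell line cultured alone, and a fall in bulk RNA cannot tell fewer expressing cells from less RNA per cell.

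Chemokines are small secreted proteins that steer migrating cells through G protein-coupled receptors, and are classed by the spacing of their first cysteines (CXC or CC). The CXC chemokines that carry a Glu-Leu-Arg (ELR) motif, here CXCL1, CXCL2, CXCL3, CXCL5, CXCL6 and IL8, act through CXCR1 and CXCR2, attract neutrophils and promote the growth of blood vessels. Their genes lie together on chromosome 4 and are well known targets of NF-κB, which IL-1 and TNF activate, and their short-lived mRNAs are controlled by proteins that bind AU-rich elements. Tumour cells and fibroblasts are common sources of them in breast cancer.

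The libraries held 16093978 to 18246254 counts in genes, so that 3 counts, the number a count of 0 allows, correspond to 0.168 to 0.191 CPM (counts scaled to library size, here with TMM factors). BNC2 itself stood at 65.6, 51.5 and 58.6 CPM with NC siRNA and at 35.5, 36.6 and 41.6 CPM with BNC2 siRNA, without overlap, and 64.6% of its level remained (log2 fold change -0.63, SE 0.09, edgeR adjusted p = 8.2e-06). The mesenchymal label was checked against 7 markers, all of which passed the expression filter, with summed levels of 6486 to 6589 CPM in NC siRNA and 6546 to 6799 CPM in BNC2 siRNA libraries. Of 8 epithelial markers only KRT18 passed, through its NC siRNA libraries, with 94, 90 and 59 counts against 11, 5 and 7 with BNC2 siRNA, and it was called as lower. Among the untested epithelial markers, ESRP2 lay higher with BNC2 siRNA, at 13, 23 and 17 counts against 8, 7 and 2 with NC siRNA. KRT8 and KRT19, at most 5 counts in a library, lay lower. EPCAM and ESRP1 had 0 counts in every library. Of 16 leukocyte markers 5 passed, 4 of them higher and 1 lower, where 72.9% of all genes tested were called (36.6% as higher), and the list's summed level was 152 to 170 CPM in NC siRNA and 275 to 286 CPM in BNC2 siRNA libraries. CD68 and NCAM1, which cells outside the blood express too, made up most of it. LAPTM5, a more leukocyte-restricted gene, rose from 86, 74 and 75 counts to 205, 216 and 191 (log2 fold change 1.42, edgeR adjusted p = 2.8e-08), and the integrin gene ITGAM from 19, 16 and 15 to 36, 34 and 38 (1.15, 0.00065), while the monocyte gene CD14 fell from 36, 30 and 23 to 12, 9 and 11, and passed the filter only through the NC siRNA libraries. ITGAM met it through the BNC2 siRNA libraries, in which it is high. The part of the epithelial and leukocyte markers in the chemokine results was not tested. The pan-leukocyte gene PTPRC had at most 7 counts in a library and the T cell gene CD3E at most 1. None of 7 endothelial markers passed.

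The question for the chemokine genes was which of them are expressed in BT549 cells and how each differs after BNC2 depletion. With BNC2 siRNA, all 7 chemokine genes that could be tested fell, from CXCL1, which kept 57.9% of its NC siRNA level, to IL8, which kept 5.31%. CCL2 was read in each NC siRNA library and in no BNC2 siRNA library. CXCL6 and CXCL12 were at or next to 0 counts throughout. The test was edgeR's quasi-likelihood test over the 12186 genes that exceeded 1 CPM in 3 libraries or more, with Benjamini-Hochberg adjustment and a threshold of 0.05. The background of this comparison is high: 72.9% of all genes tested were called, 36.2% as lower and 36.6% as higher, and in 37.2% every BNC2 siRNA library lay below every NC siRNA library. All 7 tested chemokines were called as lower and in all 7 the groups did not overlap. Their median log2 fold change was -1.90, beside a median of 0.0014 over all genes tested. A fall alone therefore does not set a gene apart here, and since the genes were chosen with earlier results known, their shared direction is a description. Among the 4417 genes that fell, IL8 ranked 49th by log2 fold change, CCL5 157th and CXCL5 181st, CXCL16 397th and CXCL2 409th, CXCL3 1374th and CXCL1 1700th.

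**Figure D1:**
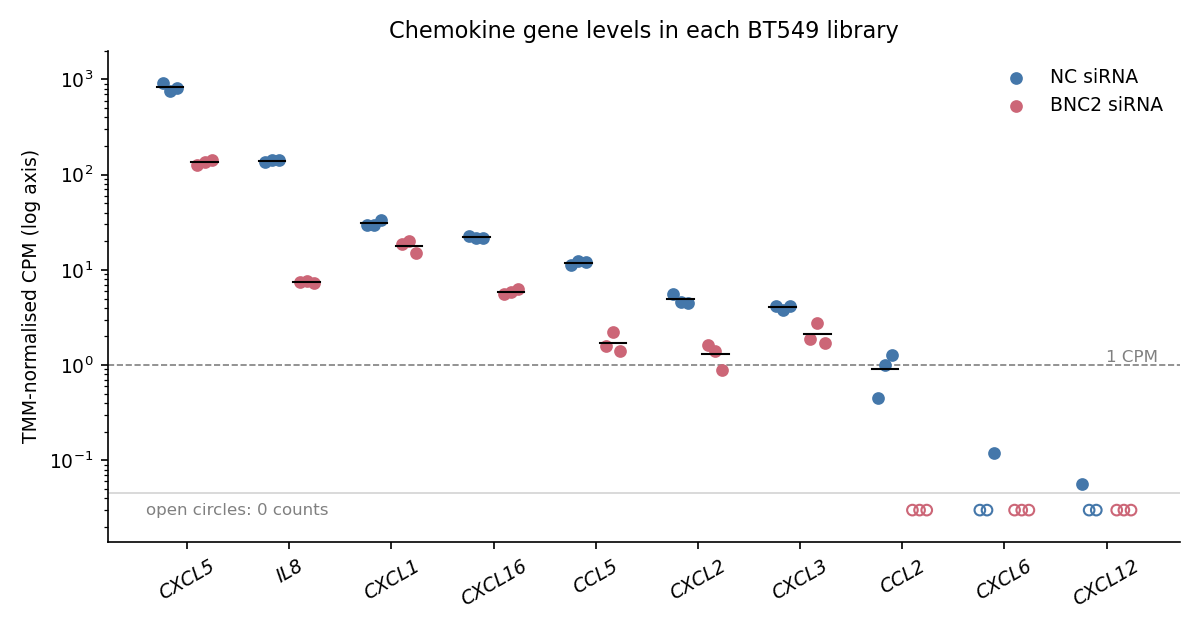
Level of each of the 10 chemokine genes in each library (vertical axis: TMM-normalised CPM, log scale), for 3 NC siRNA and 3 BNC2 siRNA libraries; points are libraries, bars are group means drawn where no library is at 0, open circles at the bottom are counts of 0 and the dashed line marks 1 CPM. In the 7 genes from CXCL5 to CXCL3 every BNC2 siRNA point lies below every NC siRNA point, with the widest gap for IL8.

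The ELR chemokines are described first. Their genes span 358678 bases of chromosome 4 (hg19, GENCODE annotation mapped to GRCh37). IL8 occupies chr4:74606236-74609433, CXCL6 chr4:74702357-74714781 and CXCL1 chr4:74735110-74737025, all on the plus strand. CXCL5 occupies chr4:74861359-74864394, CXCL3 chr4:74902306-74904524 and CXCL2 chr4:74962757-74964913, all on the minus strand. The stretches just upstream of their transcription starts are shown because these 6 genes share a feature there that choosing them by name did not use. Of the 10 chemokine genes, 7 matched an entry in the RefSeq promoter table (GRCh38.p14, 250 bases before to 50 after the start), and CXCL16, CCL2 and CCL5 did not. The motif GGAATTTCC, a form of the NF-κB site searched on both strands, was found in 6 of the 7, the 6 ELR genes, and not in CXCL12. It was found in 0.472% of all 27305 promoters in the table, 129 in number. These genes were already known as targets of NF-κB, and some of their stretches are nearly the same, as given below. The 6 matches are therefore not independent, and setting them beside this share tests no enrichment. In the following 70-base stretches, read 5′ to 3′ on each gene's strand, the capitals mark this motif.
CXCL1 (chr4:73869305-73869374, plus strand): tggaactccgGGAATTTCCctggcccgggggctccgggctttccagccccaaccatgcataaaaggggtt
CXCL2 (chr4:74099213-74099282, minus strand): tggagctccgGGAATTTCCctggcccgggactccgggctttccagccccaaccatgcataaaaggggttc
CXCL3 (chr4:74038708-74038777, minus strand): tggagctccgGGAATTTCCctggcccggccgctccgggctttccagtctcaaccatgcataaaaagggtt
CXCL5 (chr4:73998708-73998777, minus strand): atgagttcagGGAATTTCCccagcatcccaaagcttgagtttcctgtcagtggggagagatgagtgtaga
CXCL6 (chr4:73836579-73836648, plus strand): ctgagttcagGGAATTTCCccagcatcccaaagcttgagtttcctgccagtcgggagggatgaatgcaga
IL8 (chr4:73740468-73740537, plus strand): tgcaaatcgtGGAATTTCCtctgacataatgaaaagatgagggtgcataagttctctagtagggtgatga

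The motif began 78 bases before the start in CXCL1 and CXCL3, 77 in CXCL2, 90 in CXCL5, 89 in CXCL6 and 91 in IL8. The stretches fall into families by sequence. After alignment, CXCL1 matched CXCL2 at 94.4% and CXCL3 at 91.4% of positions, CXCL5 matched CXCL6 at 91.4%, and IL8 matched the others at only 47.4% to 55.3%. Some genes with near-identical stretches differed in expression. CXCL5 was the highest of the chemokines per length in NC siRNA cells, while CXCL6 had at most 2 counts in a library. CXCL2 fell further than CXCL1, as given below. The log2 fold changes of CXCL1 and CXCL3, however, differed by only 0.13 (SE 0.23), which is within error. An AP-1 type motif, TGANTCA, was found in IL8 alone of the 7, at 137 bases before the start, and in 7.76% of all promoters. A TATA-type motif, ATAAAA, was found in CXCL1, CXCL2, CXCL3, CXCL5 and IL8, at 30 or 31 bases before the start, and in 16.4% of all promoters. The GC box GGGCGG was found in CXCL1, CXCL3, CXCL6 and CXCL12, and in 44.6% of all promoters. All were searched on both strands, and a match is only a description of the sequence.

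IL8, the main neutrophil attractant of human tissue, fell furthest of the 7 tested chemokine genes. It read 2436, 2540 and 2366 counts with NC siRNA and 129, 136 and 113 counts with BNC2 siRNA. The group means were 140.6 ± 2.97 CPM and 7.46 ± 0.242 CPM (SD, n = 3 each). Both groups were narrow and far apart, an 18.8-fold difference (log2 fold change -4.23, SE 0.08, edgeR adjusted p = 1.8e-16).

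CXCL5, a neutrophil attractant of epithelial and stromal cells, was the most abundant chemokine mRNA in both groups. Its counts were 16319, 13598 and 13612 with NC siRNA and 2190, 2416 and 2257 with BNC2 siRNA. The means were 833 ± 79.7 CPM and 136 ± 8.18 CPM (SD, n = 3 each), a 6.14-fold fall (log2 fold change -2.62, SE 0.07, edgeR adjusted p = 2.9e-14). Per length of transcript, this gene had the largest absolute loss of chemokine mRNA, although IL8 lost a greater proportion.

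CXCL1, CXCL2 and CXCL3 are the GRO chemokines, close copies of one another. CXCL2 read 100, 83 and 74 counts with NC siRNA and 28, 25 and 14 with BNC2 siRNA. It met the filter through its NC siRNA libraries, in which it is high, as BNC2 siRNA library 3 held 0.891 CPM. Its mean was 4.91 ± 0.632 CPM against 1.31 ± 0.379 CPM, a 3.71-fold fall (log2 fold change -1.89, SE 0.22, edgeR adjusted p = 9.2e-07). CXCL1, the most abundant of the 3, fell less. Its counts were 531, 530 and 553 with NC siRNA and 320, 356 and 234 with BNC2 siRNA, or 31.0 ± 2.02 CPM against 17.9 ± 2.67 CPM. This was a 1.73-fold fall (log2 fold change -0.79, SE 0.10, edgeR adjusted p = 3.1e-06). CXCL3 read 74, 68 and 69 counts with NC siRNA and 32, 49 and 27 with BNC2 siRNA, and its means were 4.04 ± 0.204 CPM and 2.11 ± 0.567 CPM. The 1.90-fold fall (log2 fold change -0.92, SE 0.20, edgeR adjusted p = 0.00069) had the largest adjusted p of the 7, and the BNC2 siRNA library with 49 counts came nearest to the NC siRNA values. Few reads can be confused within this group: of all 75-base windows of the canonical transcript, 0.273% of CXCL1, 2.5% of CXCL2 and 2.3% of CXCL3 occur also in another member of the group. Reads that map to more than 1 place are missing from the counts.

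CXCL6, or granulocyte chemotactic protein, had 0, 0 and 2 counts with NC siRNA and 0 in all 3 BNC2 siRNA libraries. No difference was detectable at this depth, and without the filter on low counts its adjusted p was 0.33 in edgeR.

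**Figure D2:**
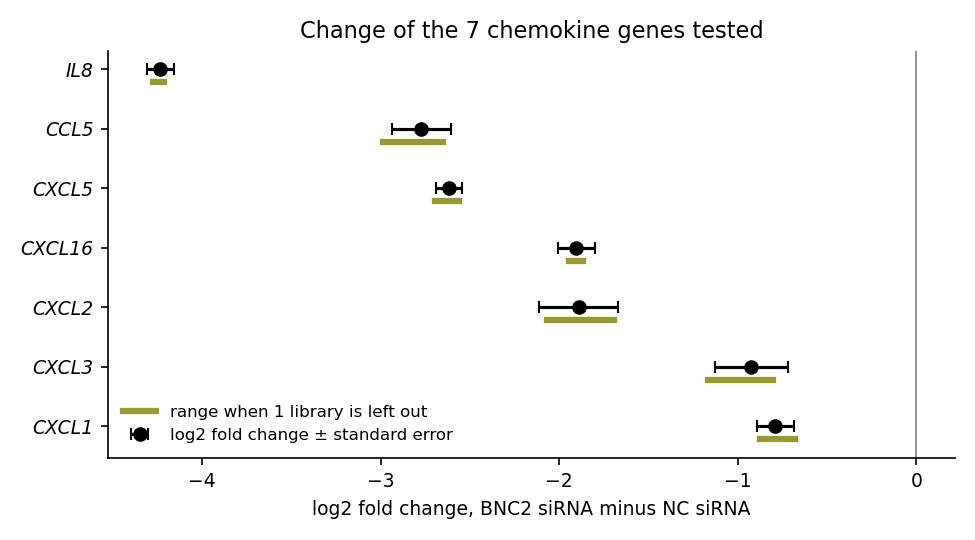
Log2 fold change (BNC2 siRNA minus NC siRNA) of the 7 tested chemokine genes; points are the edgeR quasi-likelihood estimates, error lines are 1 standard error and the thick lines under them span the estimates when 1 library is left out. IL8 has the largest fall at -4.23, followed by CCL5 (-2.77), CXCL5 (-2.62), CXCL16 (-1.90), CXCL2 (-1.89), CXCL3 (-0.92) and CXCL1 (-0.79).

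The order of the falls can be read against their errors. From IL8 to CCL5, the next gene, the log2 fold changes differed by 1.46 (SE 0.18). CCL5 and CXCL5 differed by 0.15 (SE 0.18), and CXCL16 and CXCL2 by 0.01 (SE 0.25), so these neighbours are not separated by their errors. CXCL5 and CXCL16 differed by 0.71 (SE 0.13), CXCL2 and CXCL3 by 0.97 (SE 0.30), and CXCL3 and CXCL1 by 0.13 (SE 0.23), again within error. The genes thus fall into steps, with IL8 alone first, then CCL5 and CXCL5, then CXCL16 and CXCL2, and last CXCL3 and CXCL1.

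Levels can be compared between genes only per length of transcript, so CPM was divided by the length of the canonical transcript in kilobases. In NC siRNA cells the order of levels was CXCL5 (342.1 ± 32.7 CPM per kb), IL8 (85.65 ± 1.81), CXCL1 (26.4 ± 1.72), CXCL16 (9.52 ± 0.298), CCL5 (9.16 ± 0.480), CXCL2 (4.41 ± 0.567), CXCL3 (3.76 ± 0.189) and CCL2 (1.23 ± 0.561). CXCL16 and CCL5, and likewise CXCL2 and CXCL3, lay within about their spread of each other. In BNC2 siRNA cells CXCL5 stayed first (55.75 ± 3.35 CPM per kb), while CXCL1 (15.2 ± 2.27) stood above IL8 (4.54 ± 0.148). CXCL16 (2.55 ± 0.130), CXCL3 (1.97 ± 0.527), CCL5 (1.33 ± 0.324) and CXCL2 (1.18 ± 0.339) followed, each with a spread that overlaps that of its neighbour in this order. Each value is a mean ± SD of 3 libraries.

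Taken as a pool, the 6 ELR genes summed to 1096, 942 and 1004 CPM with NC siRNA and to 157, 168 and 168 CPM with BNC2 siRNA. The means were 1014 ± 77.6 CPM and 164.5 ± 6.55 CPM (SD, n = 3 each), without overlap, and an exact two-sided permutation test gave p = 0.1, the smallest that 3 libraries against 3 allow. The pool shrank mostly through CXCL5, and the shares of 4 genes in it differed without overlap between the groups. Neither the sum nor the shares were scaled to transcript length. Longer transcripts such as CXCL5 (2436 bases) thus weigh more in them than shorter ones such as CXCL1 (1174 bases). The shares are of counts and not of molecules. IL8 made up 12.5%, 15.1% and 14.2% of the pool's counts with NC siRNA and 4.78%, 4.56% and 4.27% with BNC2 siRNA. The difference in mean share was -9.40 percentage points (exact permutation p = 0.1). CXCL1 made up 2.73%, 3.15% and 3.32% with NC siRNA and 11.9%, 11.9% and 8.85% with BNC2 siRNA. The mean share of CXCL3 was 0.399% with NC siRNA and 1.28% with BNC2 siRNA, and that of CXCL2 was 0.484% and 0.802%, each again with an exact permutation p = 0.1. CXCL5 held 83.9%, 80.9% and 81.6% of the pool with NC siRNA and 81.1%, 81.0% and 85.3% with BNC2 siRNA, and here the groups overlapped (exact permutation p = 0.8).

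**Figure D3:**
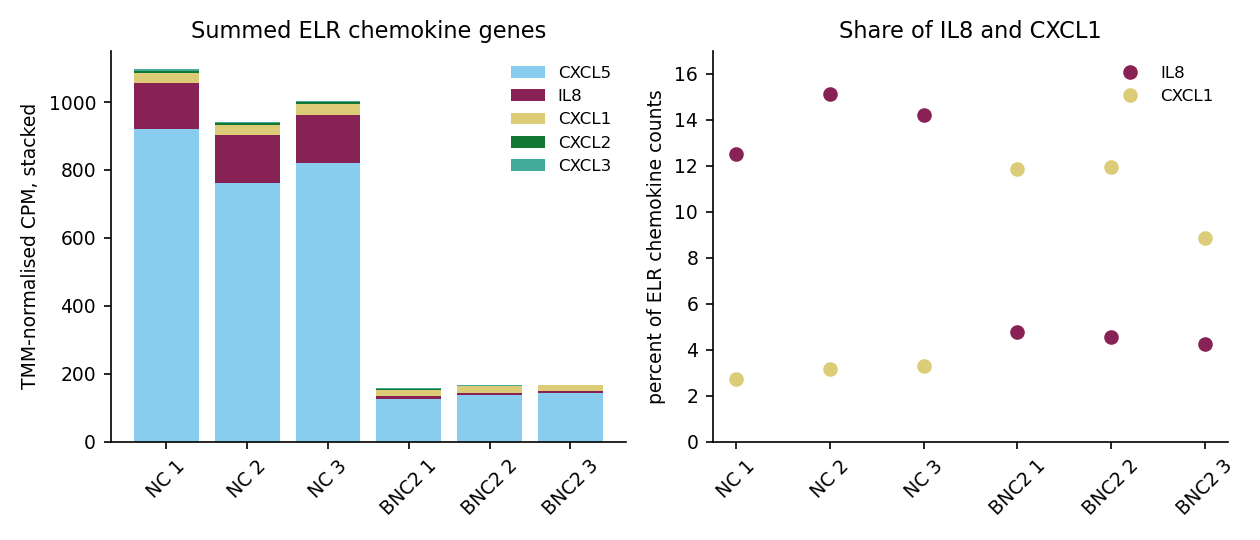
The ELR chemokine pool in each of the 6 libraries, on the left as stacked TMM-normalised CPM of CXCL5, IL8, CXCL1, CXCL2 and CXCL3 (CXCL6, at most 2 counts, is not drawn), and on the right as the percent of the pool's counts from IL8 and from CXCL1. The sum is 942 to 1096 CPM with NC siRNA and 157 to 168 CPM with BNC2 siRNA, and the share of IL8 shrinks while that of CXCL1 grows. Neither panel is scaled to transcript length.

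Ratios of counts within a library, which do not depend on the scaling of libraries, show the same order. There were 4.59, 4.79 and 4.28 IL8 counts per CXCL1 count with NC siRNA and 0.403, 0.382 and 0.483 with BNC2 siRNA, so that IL8 went from above CXCL1 to below it. Per CXCL5 count there were 0.149, 0.187 and 0.174 IL8 counts with NC siRNA and 0.0589, 0.0563 and 0.0501 with BNC2 siRNA. CXCL2 per CXCL1 count was 0.188, 0.157 and 0.134 with NC siRNA and 0.0875, 0.0702 and 0.0598 with BNC2 siRNA, also without overlap. CXCL3 per CXCL1 count was 0.139, 0.128 and 0.125 with NC siRNA and 0.10, 0.138 and 0.115 with BNC2 siRNA, and these ranges overlap.

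The falls were compared with those of the other genes of this region. The span of the 6 ELR genes holds 10 protein-coding genes in the annotation. The platelet chemokine genes in it, PF4, PF4V1 and PPBP, had at most 1 count in any library. Only 2 of the flanking genes within 500 kb on either side passed the filter and both were called as lower, beside 36.2% of all genes tested. ANKRD17, a gene for an ankyrin repeat protein, was measured at 241.1, 221.2 and 232.9 CPM with NC siRNA and 205.3, 214.3 and 214.6 CPM with BNC2 siRNA (log2 fold change -0.13, SE 0.06, edgeR adjusted p = 0.041). MTHFD2L, a mitochondrial enzyme of folate metabolism, had a log2 fold change of -0.45 (SE 0.16, edgeR adjusted p = 0.02). AFP, the alpha-fetoprotein gene, was too low to test and had 12, 19 and 14 counts with NC siRNA and 0, 2 and 0 with BNC2 siRNA.

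**Figure D4:**
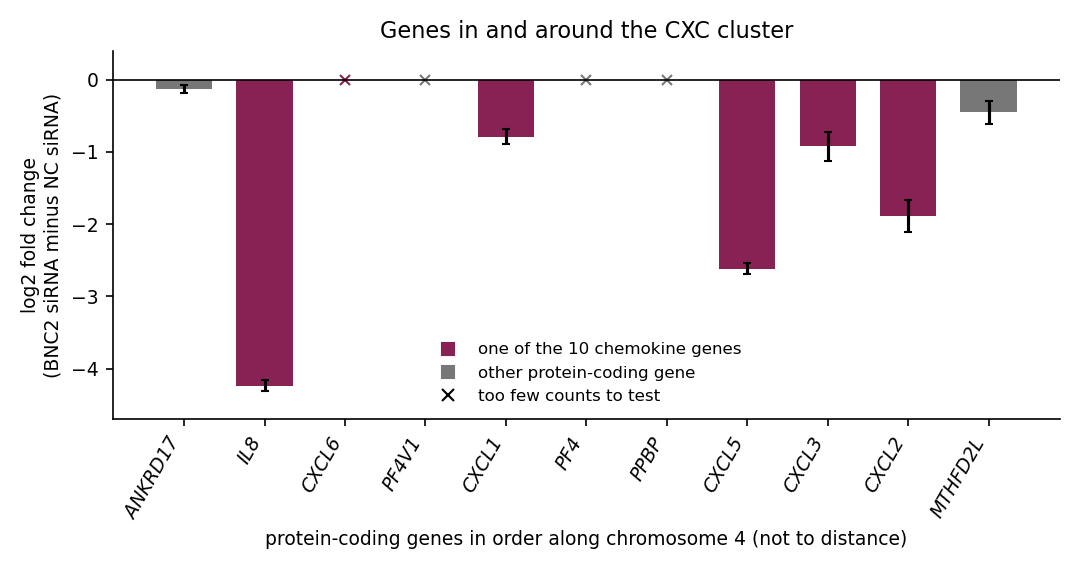
Log2 fold change (BNC2 siRNA minus NC siRNA, error lines 1 standard error) of the protein-coding genes of the chromosome 4 chemokine region, in their order along the chromosome and not to distance; untested genes outside the span of the ELR genes are left out. Crosses at 0 mark genes with too few counts to test; the chemokine bars reach from -0.79 in CXCL1 to -4.23 in IL8, and the neighbours ANKRD17 and MTHFD2L lie at -0.13 and -0.45.

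The other CXC chemokines lack the ELR motif. CXCL16 (chr17:4636828-4643223, minus strand) is made as a membrane protein that is shed by proteases and binds CXCR6 on T cells. It had 407, 388 and 361 counts with NC siRNA and 97, 104 and 98 with BNC2 siRNA, or 22.1 ± 0.689 CPM against 5.92 ± 0.302 CPM (SD, n = 3 each). The groups were tight and the fall was 3.74-fold (log2 fold change -1.90, SE 0.10, edgeR adjusted p = 8.5e-11). On the opposite strand its gene overlaps ZMYND15 by 96 bases, with at most 9 counts in a library, and by 76 bases MED11, which encodes a subunit of the Mediator complex. MED11 rose from 5.34 ± 0.809 CPM to 28.5 ± 1.53 CPM (log2 fold change 2.42, SE 0.11, edgeR adjusted p = 1.2e-11). The counts used here are those of 1 strand, and with both strands counted together CXCL16 was still called as lower. CXCL12 (chr10:44865613-44881941, minus strand), the stromal ligand of CXCR4 and ACKR3, had 1, 0 and 0 counts with NC siRNA and 0 in each BNC2 siRNA library, so no difference was detectable at this depth.

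The CC chemokines CCL2 and CCL5 both lie on chromosome 17. CCL5 (chr17:34198495-34207797, minus strand), which attracts T cells and monocytes, had 199, 222 and 200 counts with NC siRNA and 27, 39 and 22 with BNC2 siRNA. Its mean was 11.9 ± 0.625 CPM against 1.72 ± 0.421 CPM (SD, n = 3 each), a 6.83-fold fall (log2 fold change -2.77, SE 0.17, edgeR adjusted p = 2.5e-10). Of the 75-base windows of its annotated canonical transcript 9.8% occur elsewhere in the transcriptome, and an antisense non-coding gene covers its locus. Opposite-strand reads were few, at most 2 in a library. CCL2 (chr17:32582293-32584227, plus strand), the monocyte attractant that signals through CCR2, had 8, 18 and 21 counts with NC siRNA, a mean of 0.908 ± 0.416 CPM, and 0 in all 3 BNC2 siRNA libraries. It was too low for the filter, and was at least 5.09-fold lower with BNC2 siRNA when 3 counts per library are allowed for. When every gene with a count was tested it was called as lower (edgeR adjusted p = 2.2e-09).

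The remaining chemokine ligands were nearly silent. Of 38 other ligand genes only CCL20, which draws CCR6-bearing T cells and dendritic cells, passed the filter, and 22 had 0 counts in all libraries. CCL20 had 18, 44 and 39 counts with NC siRNA and 1, 2 and 0 with BNC2 siRNA. Summed over libraries and scaled for depth, it was 32.6-fold lower, with a 95% exact counting interval of 10.9 to 161 that covers counting error only, and edgeR called it as lower (adjusted p = 2.5e-06). It passed the filter through its NC siRNA libraries, and was not tested when any of them was left out. The untested ligands had at most 10 counts in a library.

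Genes for chemokine receptors were read in the same libraries, as mRNA only. Of 24 receptor genes 3 passed the filter, 2 rose and 1 fell, where 72.9% of all genes tested were called (36.6% as higher and 36.2% as lower). CCR1, a receptor of CCL5, had 7, 8 and 14 counts with NC siRNA and 79, 77 and 52 with BNC2 siRNA, the opposite direction to CCL5 itself (log2 fold change 2.87, SE 0.28, edgeR adjusted p = 1.2e-07). It passed through the BNC2 siRNA libraries, in which it is high. ACKR3, listed in the table as CXCR7, is an atypical receptor that takes up CXCL12, and had 31, 34 and 43 counts with NC siRNA against 59, 64 and 51 with BNC2 siRNA (log2 fold change 0.73, SE 0.20, edgeR adjusted p = 0.0044). PITPNM3, described as a receptor of CCL18, fell (log2 fold change -1.08, SE 0.14, edgeR adjusted p = 3.9e-06). CXCR1, CXCR2 and CXCR4 had at most 1 count in any library and CXCR6 had 0.

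**Figure D5:**
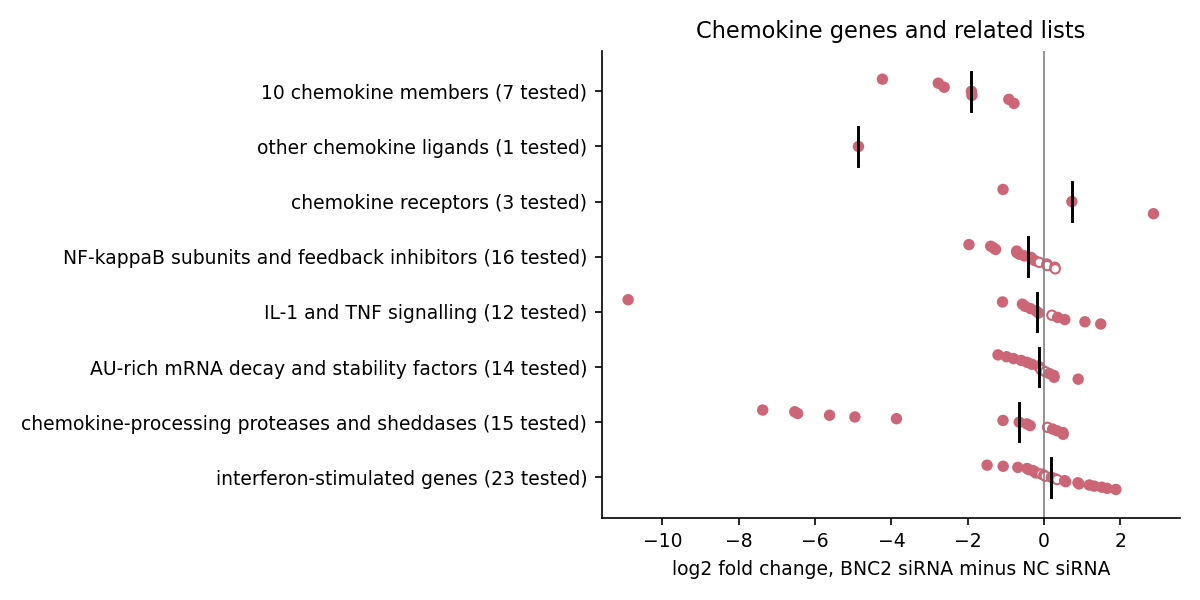
Log2 fold changes (BNC2 siRNA minus NC siRNA) of the tested genes of each chemokine-related list; each point is a gene, filled where edgeR's adjusted p was at most 0.05 and open where it was not, and black bars are medians. The chemokine genes all lie below 0, while the lists of signalling, mRNA decay, protease and interferon genes lie on both sides; the positions of genes near 0 counts with BNC2 siRNA, such as IL1B, MMP8, CTSS, PLAT and CCL20, depend on the model's prior count.

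Genes that act upstream of ELR chemokines were counted in lists, each to be read against the 72.9% of all genes tested that were called. Of 16 genes for NF-κB subunits, kinases and feedback inhibitors all were tested, 11 fell, 1 rose and 4 were not called (median log2 fold change -0.43). The largest falls were in inhibitors that NF-κB itself induces or that restrain it: NFKBIE (log2 fold change -1.97, edgeR adjusted p = 6e-11), TNFAIP3 (-1.40, 4.8e-09) and TNIP2 (-1.33, 4.5e-09). TNIP1, another inhibitor, rose (0.28, 0.00074). The subunits NFKB1 and RELA, given because they are the core of the factor and outside the naming rule, fell by 0.64 and 0.34 on the log2 scale (edgeR adjusted p = 8.6e-08 and 5.6e-05).

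Of 20 genes of IL-1 and TNF signalling 12 were tested, 7 fell, 4 rose and 1 was not called (median log2 fold change -0.18). IL1B, the IL-1 ligand that induces IL8 and the GRO genes in many cells, had 2118, 2280 and 2223 counts with NC siRNA and 3, 0 and 0 with BNC2 siRNA. Summed over libraries this was a 2140-fold difference, with a 95% exact counting interval of 732 to 10400. The kinases IRAK2 and IRAK4, which carry the IL-1 receptor signal, fell (log2 fold changes -1.09 and -0.57, edgeR adjusted p = 1.6e-08 and 0.00041), while IRAK1, a further kinase of this family named after its values were seen, rose from 462 ± 27.5 CPM to 590.4 ± 21.4 CPM (SD, n = 3 each; 0.35, 3.8e-05). The receptor subunits IL17RC and IL1RAP and the adaptor TRAF2 rose (1.48, 1.07 and 0.54, edgeR adjusted p = 1.8e-08, 5.1e-10 and 9.6e-07). The list therefore did not move in 1 direction.

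Of 14 factors that bind or regulate AU-rich mRNA, all were tested, 7 fell, 4 rose and 3 were not called (median log2 fold change -0.13), a share of calls near the 72.9% of all genes tested. ZFP36, which promotes decay of such mRNAs, fell (-1.21, edgeR adjusted p = 1.3e-10), as did ARID5A, which stabilises some of them (-0.98, 1.5e-05), and the kinase MAPK14 (-0.80, 2.8e-07). TIA1, a translational repressor, rose (0.89, 1.5e-09), and KHSRP and HNRNPD rose by less (0.26 and 0.25 on the log2 scale).

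Proteases that trim or shed chemokines were counted as well. Of 17 such genes 15 were tested, 10 fell, 4 rose and 1 was not called (median log2 fold change -0.65), beside 72.9% of all genes tested called and 36.2% called as lower. MMP8, neutrophil collagenase, had 75, 74 and 84 counts with NC siRNA and 0, 1 and 0 with BNC2 siRNA. The lysosomal protease CTSS had 72, 88 and 66 counts against 1, 0 and 1, and PLAT, the tissue plasminogen activator, had 334, 338 and 356 against 4, 3 and 4. These 3 genes were called as lower, but passed the filter only through the NC siRNA libraries, in which they are high, as did IL1B. MMP1, MMP9 and MMP3, named after their values were seen, exceeded 1 CPM in all 6 libraries and also fell. Their log2 fold changes were -5.62, -4.96 and -3.87 (edgeR adjusted p = 1.8e-16, 3e-16 and 6.6e-14). ADAM10, a sheddase of CXCL16, rose (log2 fold change 0.50, edgeR adjusted p = 1.6e-06), as did PLAU (0.49, 3e-07) and ANPEP (0.34, 2e-05). ADAM17, another sheddase, named for that role after its values were seen, fell (-0.65, 3.8e-07).

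Interferon-stimulated genes, with which CCL5 is often induced, were called in both directions, as were the genes tested as a whole (36.6% higher and 36.2% lower). Of 28 genes 23 were tested, 11 rose, 7 fell and 5 were not called (median log2 fold change 0.19), again a share of calls near 72.9%. OAS2, IFI44L and IFIT2, antiviral effectors, rose (1.88, 1.65 and 1.51, edgeR adjusted p = 1.8e-05, 5.2e-06 and 1.1e-08), OAS2 meeting the filter through its BNC2 siRNA libraries. IRF1, the transcription factor, fell (-1.49, 2.1e-11), as did IFIT3 (-0.69, 8.8e-06) and ISG20 (-1.07, 0.0045), which met the filter through its NC siRNA libraries, in which it is high.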

How the data were processed

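The 6 RNA-seq libraries of BT549 cells, 3 with NC siRNA and 3 with BNC2 siRNA, were grouped by their labels. The authors sequenced poly(A) RNA as single-end reads, aligned them with STAR 2.6.1d to hg19 (iGenomes UCSC annotation) and deposited raw read counts per gene, which hold uniquely mapped reads overlapping 1 gene on the reverse strand. Rows that name no gene held 37.7% to 41.1% of a library's reads, and entered neither library sizes nor tests. Depth was 16093978 to 18246254 counts, and limits from counts of 0 and counting intervals cover counting error only.

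Genes that exceeded 1 CPM in 3 or more libraries were compared in R 4.3.3 with edgeR 4.0.16 (TMM, quasi-likelihood test, Benjamini-Hochberg adjusted p of at most 0.05). The methods call the replicates biological. A test on simulated counts preceded this. Single sums and shares were compared with exact two-sided permutation tests over libraries. As alternatives, the likelihood ratio test of edgeR (the study's), DESeq2 1.42.0, its size factors, total counts only, no filter, filterByExpr, a replicate block, both strands and leaving out each library were tried.

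Positions, canonical transcripts and lengths come from GENCODE 44 mapped to GRCh37, and promoter sequences from RefSeq (GRCh38.p14). The chemokine genes and gene lists were chosen with earlier results of these data known. The naming rule took all 10 chemokines, BNC2 and, per list, up to 3 largest called rises and falls. Marker lists are given as counts with their most abundant or defining genes.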

Additional observations from a re-analysis of the deposited data

Results flagged for a closer look

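In the strand that the comparisons do not use, CXCL16 had 42, 37 and 27 reads in BNC2 siRNA libraries 1, 2 and 3, against 10, 13 and 15 in the NC siRNA libraries, so that every BNC2 siRNA library lay above every NC siRNA library. These reads lie opposite to the CXCL16 mRNA. MED11, which overlaps CXCL16 by 76 bases on that strand, had 512, 513 and 421 counts with BNC2 siRNA and 84, 90 and 104 with NC siRNA. ZMYND15, which overlaps it by 96 bases on the same strand as MED11, had 3, 0 and 1 counts with BNC2 siRNA and 9, 3 and 0 with NC siRNA. The part of either gene in these reads was not tested.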

How the results depend on the processing

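All 7 tested chemokine genes were called as lower under each of the 14 alternatives. Their log2 fold changes lay between -4.31 and -4.21 for IL8, between -2.99 and -2.65 for CCL5, between -2.70 and -2.56 for CXCL5, between -1.98 and -1.85 for CXCL16, between -2.07 and -1.69 for CXCL2, between -1.16 and -0.80 for CXCL3 and between -0.88 and -0.68 for CXCL1, and the largest adjusted p was 0.0052, in CXCL3. The share of IL8 in the ELR pool differed by -10.11 to -8.816 percentage points. Of the other chemokine ligands, 0 to 1 were called when a library was left out, and CCL20 was untested without any 1 NC siRNA library. Replicate numbers did not pair the samples (correlations of same-numbered deviations -0.29, -0.10 and -0.17). A replicate block gave 8400 calls among all genes, beside 8879, and the 7 chemokine genes were still called. Outside the 10 chemokine genes and BNC2, tested list genes lost their call in 42 gene-by-alternative comparisons and gained a call in 6. In 1096 such comparisons sign and call stayed the same, and in 14 the sign changed. Of the list genes, 6 that were not called changed sign in log2 fold change. Leaving out 1 library in turn gave values from -0.023 to 0.15 for NFKBIB, -0.0043 to 0.14 for CHUK, -0.015 to 0.039 for ZFP36L2, -0.17 to 0.056 for RC3H1, -0.070 to 0.10 for OAS3 and -0.057 to 0.14 for HERC5. With total counts only, NFKBIB was at -0.0024, ZFP36L2 at -0.043 and HERC5 at -0.046. That scaling moved all genes alike, and the median over all genes tested was -0.0745 with it, beside 0.0014 in the main comparison. OAS3 was at 0.022 with no filter and at 0.0025 with filterByExpr. The cause of the sign changes was not tested. Depth limits CXCL6, CXCL12 and CCL2.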
